A study of Mus musculus with 6 samples.

Results

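The Kruppel-like factors (KLFs) examined here are 10 of the 18193 genes on the array, Klf2, Klf3, Klf4, Klf5, Klf6, Klf7, Klf9, Klf10, Klf13 and Klf16, represented by the 34 probe sets whose annotation names exactly 1 of them, out of 45037 probe sets tested. A probe set is a group of short array oligonucleotides read as 1 value. The samples were cultures of 393P, mouse lung tumour cells kept as a mass population from the primary lung tumour of an animal carrying the alleles p53R172H∆g/+ and K-rasLA1/+, so both groups share these alleles. In 3 cultures, A, B and C, a vector expressed a short hairpin RNA (shRNA) against MKK4, the product of Map2k4 and a kinase upstream of JNK and p38. The other 3 cultures, also lettered A, B and C, carried the control vector, which the series text calls scrambled. The series text has the vectors delivered by retrovirus, whereas the treatment protocol has them transfected. A single shRNA population was set against a single control population, and the p-values therefore reflect variation among parallel cultures, which may be technical.

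KLFs are transcription factors that bind CACCC and GC-rich DNA through zinc fingers at their C-terminal end, while the rest of the protein differs between members and recruits activators or repressors. KLF4 and KLF5 are known for opposed roles in epithelia, KLF4 being linked to differentiation and growth arrest and KLF5 to proliferation. KLF3 represses through CtBP, and KLF9, KLF10, KLF13 and KLF16 recruit SIN3A. Several of these genes respond quickly to outside signals: Klf9 to glucocorticoid and thyroid hormone, Klf10 to TGF-beta, and Klf2 and Klf4 to the ERK5 kinase pathway.

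Upstream sequence is shown for the 3 members with a called probe set, because CACCC is also the box that KLFs themselves bind. Each line gives the 250 bases before the RefSeq start site (GRCm38.p6), 5′ to 3′ on the gene's strand, with CACCC or its reverse complement GGGTG in capitals.
Klf3, chr5:64803271-64803520, plus strand: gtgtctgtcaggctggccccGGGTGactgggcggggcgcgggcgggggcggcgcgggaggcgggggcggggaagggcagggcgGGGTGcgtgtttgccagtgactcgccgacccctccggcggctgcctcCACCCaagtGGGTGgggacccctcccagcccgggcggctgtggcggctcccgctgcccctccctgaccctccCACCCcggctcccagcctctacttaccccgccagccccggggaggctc
Klf4, chr4:55532476-55532725, minus strand: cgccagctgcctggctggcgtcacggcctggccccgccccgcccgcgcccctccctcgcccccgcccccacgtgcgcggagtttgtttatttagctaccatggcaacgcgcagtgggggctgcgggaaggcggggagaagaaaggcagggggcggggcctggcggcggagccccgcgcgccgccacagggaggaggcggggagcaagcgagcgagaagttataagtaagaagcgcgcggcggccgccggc
Klf9, chr19:23140976-23141225, plus strand: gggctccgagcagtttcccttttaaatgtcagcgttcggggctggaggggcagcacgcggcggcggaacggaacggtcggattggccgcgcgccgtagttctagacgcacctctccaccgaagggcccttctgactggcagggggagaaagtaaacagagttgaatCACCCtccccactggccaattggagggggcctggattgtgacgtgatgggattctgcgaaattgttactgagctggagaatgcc

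The Klf3 window held 5 matches to CACCC, the Klf9 window 1 and the Klf4 window 0. Of the 7 members found in the promoter table (Klf2, Klf3, Klf4, Klf6, Klf7, Klf9 and Klf13), 5 had a match within these 250 bases, against 52% of all 32851 windows of that length. The GC box GGGCGG was matched 6 times in the Klf3 window and 4 times in the Klf4 window, but 0 times in the Klf9 window. It occurred in 6 of the 7 members and in 32.7% of all windows. The GC share was 78.4% for Klf3, 74.0% for Klf4 and 59.6% for Klf9. The AP-1 site TGACTCA was in 0 of the 7 member windows and 4.46% of all windows, and the cyclic AMP response element TGACGTCA in 0 of 7 and 1.55%. All motifs were read on both strands. A match is a string of letters and not a measured binding site.

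The knockdown was visible in the targeted transcript. On the brighter of its probe sets Map2k4 gave 240, 295 and 287 intensity units in the MKK4 shRNA cultures A, B and C, against 700.3, 638 and 597 in the control cultures. The log2 change was -1.21 (SE 0.079, limma adjusted p = 0.000386). A two-sided exact permutation over the arrays can go no lower than p = 0.1 with 3 against 3, and it reached that value. Array medians lay between 92 and 95.76 units. The highest of the 3 bacterial trpnX control probe sets reached 26.45 to 39.47 units per array, and a probe set with no array above it is called at background here. Summed markers of other cell types overlapped between the groups: the 7 fibroblast markers came to 478 to 560.0 units in MKK4 shRNA cultures and 497 to 543 in control cultures, with Dcn at background. The 6 leukocyte markers summed to 1063 to 1255 units in MKK4 shRNA cultures and 1135 to 1237 in control cultures, with Itgam and Cd3e at background, and the 7 endothelial markers to 550.3 to 722 in MKK4 shRNA and 606 to 781 in control cultures, with Tie1 at background. Csf1r alone averaged 725 units in MKK4 shRNA and 771 in control cultures, most of the leukocyte sum. No gene of these 3 lists was called, against 9.46% of all genes. Most of these markers averaged below the array medians, so the absence of calls says little. The 7 lung tumour epithelial markers summed to 46572 to 47642 units in MKK4 shRNA cultures and 47199 to 47738 in control cultures. Of these, Krt19 (log2 change 0.23) was called higher and Epcam (-0.35), Cdh1 (-0.14) and Cldn7 (-0.13) lower, against 5.23% and 4.23% of all genes. Under alternative settings of the processing Epcam passed in all 15 that include it. Krt19 and Cdh1 passed in 6 of 16 and Cldn7 in 5 of 16. The part of such shifts in the KLF values was not tested. In bulk RNA, fewer cells of a type and less RNA per cell cannot be told apart.

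Of the 34 KLF probe sets, 2 rose and 3 fell in the MKK4 shRNA cultures by limma with Benjamini-Hochberg adjustment over all probe sets at 0.05. The rises were both probe sets of Klf4, and the falls were 2 of 7 probe sets of Klf9 and 1 of 7 of Klf3. With values as deposited or with median centring in place of quantile normalization both rises passed and 0 falls did. Across the array 6.37% of probe sets were called, 3.57% higher and 2.79% lower. Most KLF probe sets were bright, and of the 29 whose mean lay above the median 5 were called, against 11.9% of all probe sets above the median (6.56% higher, 5.34% lower). By each gene's brightest probe set 3 of 10 KLF genes were called, against 9.46% of all genes. These counts are small, and probe sets of 1 gene read the same transcripts, so they say little about KLFs as a set. The median log2 change was -0.035 over the 34 probe sets and -0.0064 over all probe sets. In normalized values the groups did not overlap for 14 of the 34, against 23.1% of all probe sets. In deposited units the count was 7 of the 34, against 21.2%. All KLF changes were small, the largest called being 1.26-fold. A probe set's intensity depends on its own oligonucleotides, so levels below are compared between groups and never between genes.

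**Figure D1:**
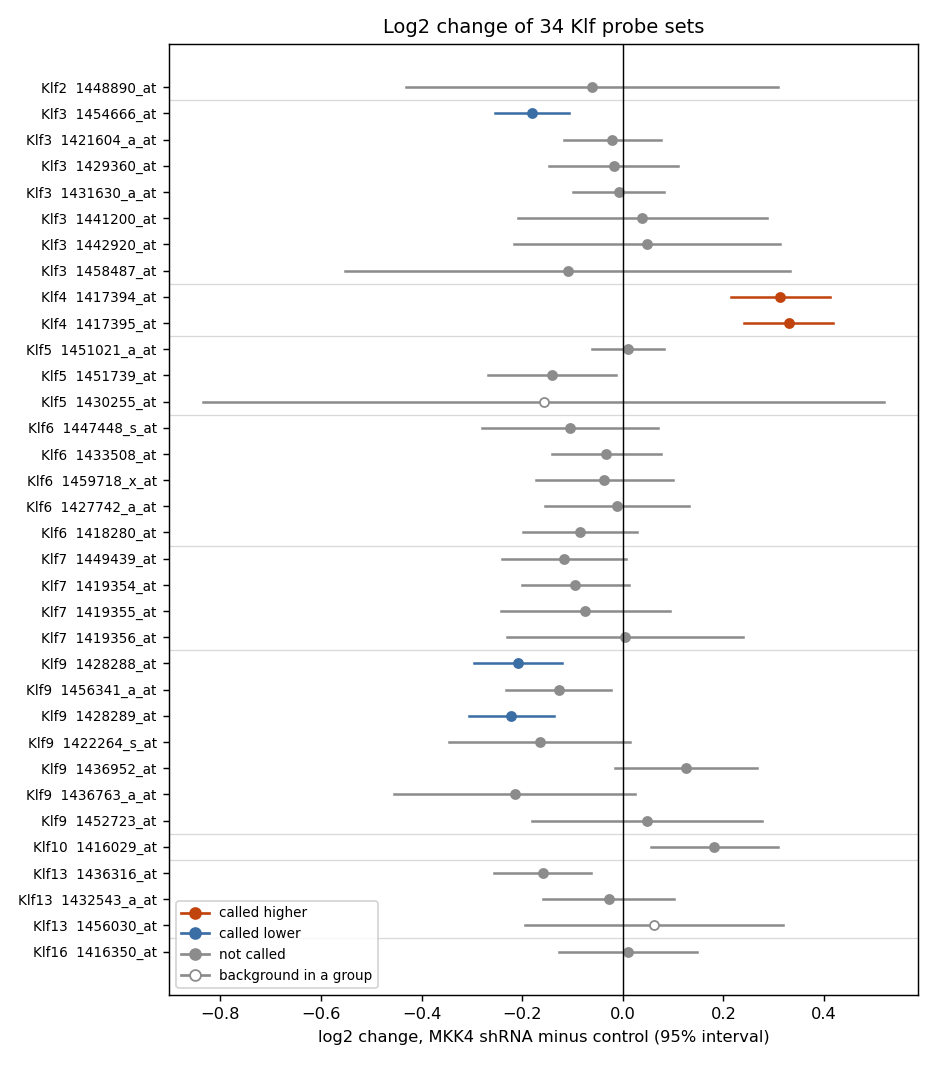
Log2 change (MKK4 shRNA minus control) of each of the 34 KLF probe sets, with 95% intervals from the limma fit, grouped by gene and ordered within a gene by mean intensity. The 2 Klf4 probe sets lie to the right of 0 at 0.31 and 0.33, and the called Klf9 and Klf3 probe sets lie to the left between -0.22 and -0.18.

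Klf4, an activator and repressor of epithelial differentiation genes and one of the factors used to reprogram cells to pluripotency, was the member with the clearest change. Its brighter probe set, 1417394_at, read 969, 1058 and 1043 units in MKK4 shRNA cultures A, B and C, against 872, 774 and 799 in control cultures. The second, 1417395_at, read 703, 776 and 761 units in MKK4 shRNA cultures, against 606, 571 and 571 in control cultures. On both, every MKK4 shRNA culture was above every control culture, and the control cultures differed among themselves by less than the groups did. On the first the means were 1023 ± 47.6 units in MKK4 shRNA cultures and 815 ± 51.0 in control cultures (SD, n = 3 each), a log2 change of 0.31 (SE 0.042, limma adjusted p = 0.00634). On the second they were 746 ± 38.6 in MKK4 shRNA cultures and 582 ± 20.1 in control cultures (SD, n = 3 each), a log2 change of 0.33 (SE 0.038, adjusted p = 0.00343). These are rises of 1.24-fold and 1.26-fold. The annotation ties both probe sets to a single source sequence, so their agreement is a repeat of the measurement and not an independent transcript. The second passed in all 14 alternative settings that include it, and the first in 15 of 16, the exception being a prior variance without trend (adjusted p = 0.0563, the highest of the 16).

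**Figure D2:**
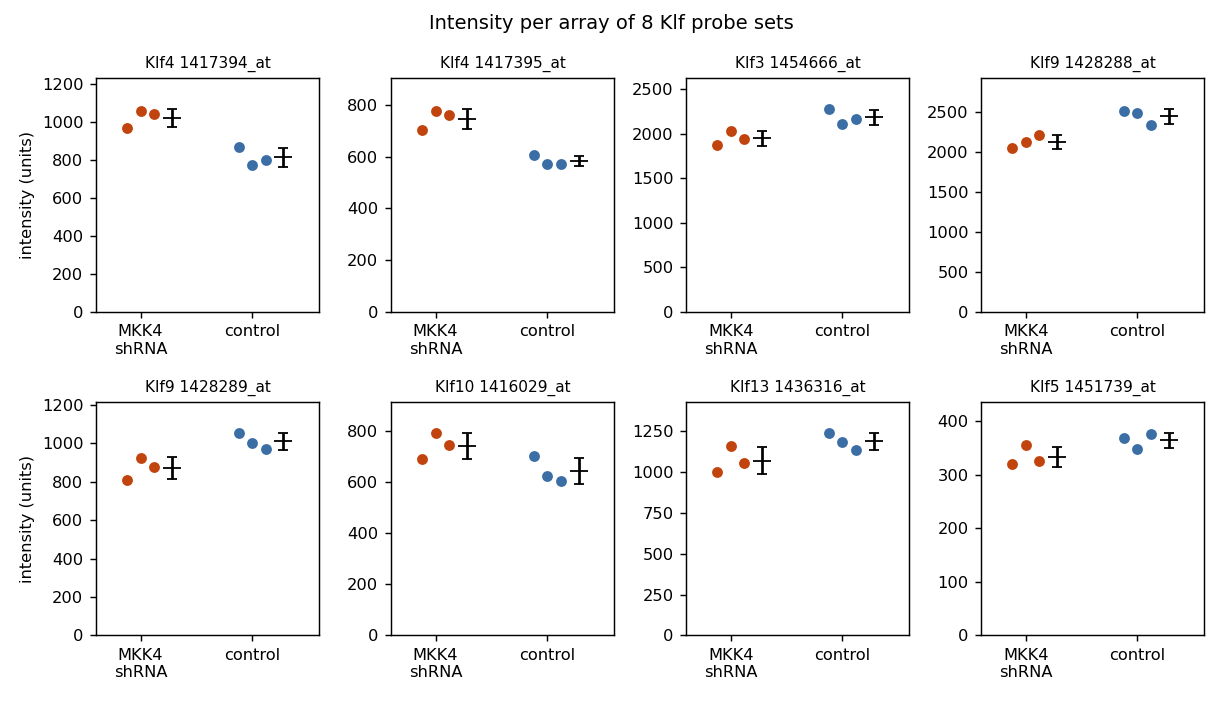
Intensity in deposited units (each vertical axis starts at 0) of 8 KLF probe sets in the 3 MKK4 shRNA and 3 control cultures, each point an array in the order A, B, C, with the group mean and SD in black. The Klf4 points of the MKK4 shRNA cultures all lie above the control points, those of Klf3 and Klf9 all below, and the points of Klf10, Klf13 and Klf5 overlap between groups.

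Among the other members usually described as activators, no probe set passed the test. Klf5, which drives proliferation of epithelial progenitors, read 2244, 2391 and 2277 units on its brightest probe set (1451021_a_at) in MKK4 shRNA cultures, against 2287, 2302 and 2220 in control cultures. The groups overlapped, and the log2 difference of 0.0095 had a 95% interval of -0.062 to 0.081. Its second probe set, 1451739_at, averaged 333 ± 18.9 units in MKK4 shRNA cultures and 364 ± 14.7 in control cultures (SD, n = 3 each), a log2 difference of -0.14 with a limma adjusted p of 0.217. Culture B with the shRNA, at 355 units, lay above control culture B at 348, while after normalization the groups did not overlap. The dimmest, 1430255_at, was at background in the MKK4 shRNA cultures and above it in control culture A alone, at 42.1 units.

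Klf6, which encodes a growth-restraining factor that activates the CDK inhibitor gene Cdkn1a, had 5 probe sets with log2 differences of -0.11 to -0.011 and limma adjusted p of 0.431 to 0.955. As fitted, all 5 were below 0 in sign, as were 23463 of all 45037 probe sets, and none passed. The sign depended on the setting: 1427742_a_at gave 0.010 with values as deposited and 0.0060 with median centring. The probe set 1447448_s_at spread more widely in MKK4 shRNA cultures, with 1507, 1823 and 2002 units, than in control cultures, with 1870.0, 1912 and 1863. Its low value came from MKK4 shRNA culture A, and the SDs were 251 units in MKK4 shRNA cultures and 26.6 in control cultures (n = 3 each). Probe set 1459718_x_at, which rests on the same source sequence, also had its lowest value there, with SDs of 154 units in MKK4 shRNA cultures and 32.9 in control cultures (n = 3 each).

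Klf7, best known from neurons and adipocytes, had 4 probe sets with log2 differences of -0.12 to 0.0044 and limma adjusted p of 0.293 to 0.991. The tightest was 1419354_at, with 654, 649.9 and 653 units in MKK4 shRNA cultures and 696, 674 and 684 in control cultures. The groups did not overlap there, but the log2 difference of -0.094 did not pass (adjusted p = 0.335). Klf2, first described in lung and needed in endothelium and resting T cells, varied as much within as between groups, with 171, 225 and 227 units in MKK4 shRNA cultures against 170.0, 218 and 257 in control cultures. Its log2 difference was -0.061 with a 95% interval of -0.43 to 0.31 (adjusted p = 0.893).

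Klf3, the CtBP-dependent repressor, gave a lower value on 1 of its 7 probe sets. On 1454666_at the MKK4 shRNA cultures read 1874, 2033 and 1938 units, against 2280, 2111 and 2170 in the control cultures. The groups did not overlap, although MKK4 shRNA culture B and control culture B were close. The means were 1948 ± 80.1 units in MKK4 shRNA cultures and 2187 ± 86.0 in control cultures (SD, n = 3 each). The log2 change was -0.18 (SE 0.031, limma adjusted p = 0.0163), a fall of 1.13-fold. The next 3 by intensity read nearly the same in both groups: 764 ± 42.7 units in MKK4 shRNA and 765 ± 42.4 in control cultures on 1421604_a_at, 668 ± 43.6 in MKK4 shRNA and 666 ± 36.5 in control cultures on 1429360_at, and 547 ± 19.0 in MKK4 shRNA and 545 ± 3.51 in control cultures on 1431630_a_at (SD, n = 3 each). Over all 6 other probe sets the log2 differences ran from -0.11 to 0.048 and the adjusted p from 0.834 to 0.948. The called probe set lay 1.54 to 1.56 log2 units above the mean of those 3 in MKK4 shRNA cultures and 1.70 to 1.74 above it in control cultures, a comparison chosen after the values were seen and not tested. With values as deposited its adjusted p was 0.107 and with median centring 0.116. With the probe sets averaged Klf3 gave a log2 difference of -0.036 (adjusted p = 0.73), the highest p of 16 settings, of which 6 passed. Leaving out 1 array ended the call in 5 of 6 cases: control A (adjusted p = 0.0517), control C (0.0654), MKK4 shRNA A (0.0538), B (0.0595) or C (0.0729).

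Klf9, a SIN3A-binding repressor induced by glucocorticoids, was the only other gene with called probe sets, and 5 of its 7 probe sets were below 0. Probe set 1428288_at read 2045, 2120 and 2214 units in MKK4 shRNA cultures, against 2515, 2481 and 2338 in control cultures. Probe set 1428289_at read 811, 923 and 879 units in MKK4 shRNA cultures, against 1057, 1003 and 973 in control cultures. On both, all MKK4 shRNA cultures were below all control cultures. The means were 2126 ± 84.4 units in MKK4 shRNA and 2445 ± 94.3 in control cultures on the first, and 871 ± 56.5 in MKK4 shRNA and 1011 ± 42.6 in control cultures on the second (SD, n = 3 each). The log2 changes were -0.21 (SE 0.037, limma adjusted p = 0.0185) and -0.22 (SE 0.036, adjusted p = 0.0137), falls of 1.16-fold and 1.17-fold. Another bright probe set, 1456341_a_at, averaged 1657 ± 99.5 units in MKK4 shRNA cultures and 1802 ± 72.5 in control cultures (SD, n = 3 each), a log2 difference of -0.13 that did not pass (0.169). The dimmer 1422264_s_at and 1436763_a_at gave -0.17 and -0.21 with wider errors and adjusted p of 0.312 and 0.327.

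The other 2 Klf9 probe sets had differences above 0. On 1436952_at the MKK4 shRNA cultures read 311, 307 and 326 units, against 295, 292 and 268 in control cultures. The groups did not overlap, and the log2 difference of 0.13 did not pass (limma adjusted p = 0.331). The mean of the called pair lay 2.03 to 2.13 log2 units above this probe set in MKK4 shRNA cultures and 2.39 to 2.43 above it in control cultures, again a comparison chosen after the values were seen and not tested. The dimmest, 1452723_at, averaged 58.6 ± 1.13 units in MKK4 shRNA cultures and 56.0 ± 3.06 in control cultures (SD, n = 3 each), a log2 difference of 0.049 (adjusted p = 0.858). Neither called probe set passed with values as deposited (adjusted p 0.0567 for 1428288_at and 0.108 for 1428289_at) or with median centring (0.0744 and 0.103). With all 7 averaged, Klf9 gave a log2 difference of -0.11 with an adjusted p of 0.188, the highest of 16 settings for the gene's brightest probe set, which passed in 6. Leaving out control A (adjusted p = 0.0676), control B (0.0755), or MKK4 shRNA A (0.0659), B (0.0893) or C (0.055) ended the call of 1428288_at, and leaving out control A (0.0502), control B (0.0595) or MKK4 shRNA C (0.0589) that of 1428289_at. Of the 14 settings that include 1428289_at it passed in 7, the highest adjusted p being 0.108.

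**Figure D3:**
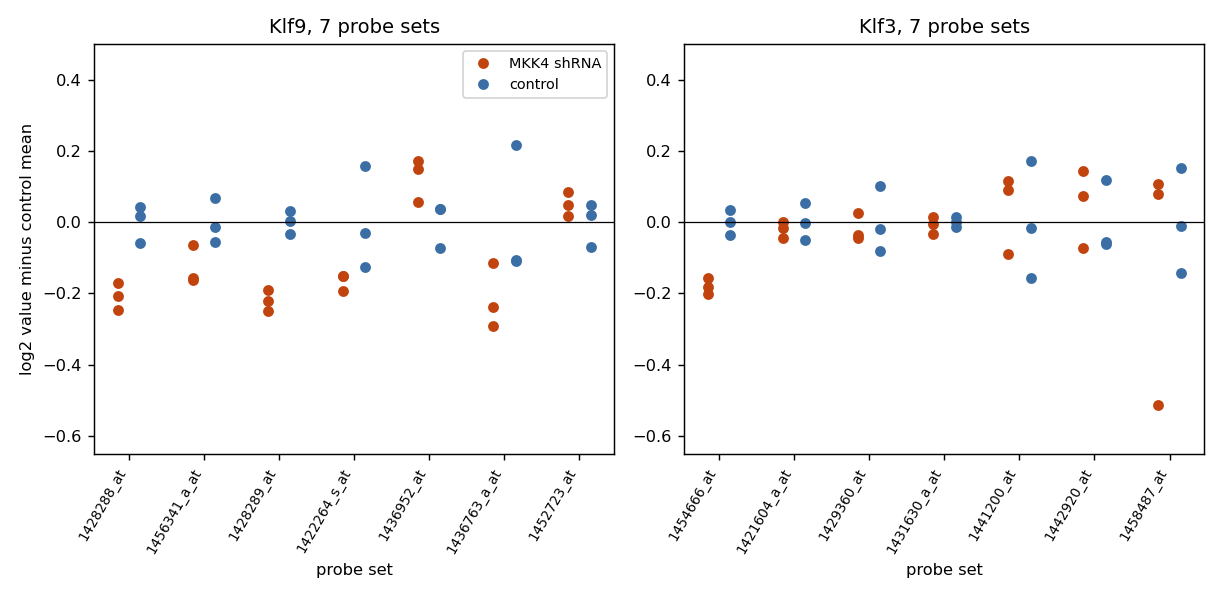
Normalized log2 value of each array minus the mean of the 3 control arrays, for the 7 probe sets of Klf9 and the 7 of Klf3, ordered by mean intensity, with MKK4 shRNA points left of control points. The MKK4 shRNA points all lie below the control points for the called 1428288_at, 1428289_at and 1454666_at and for the uncalled Klf9 probe sets 1456341_a_at, 1422264_s_at and 1436763_a_at, above them for 1436952_at, and among them for most Klf3 probe sets.

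Klf10, the TGF-beta inducible early gene, had 1 probe set. It read 691, 793 and 743 units in MKK4 shRNA cultures, against 699.9, 625 and 605 in control cultures. Control culture A lay above MKK4 shRNA culture A in these units, while after normalization the groups did not overlap. The means were 742 ± 51.0 units in MKK4 shRNA cultures and 643 ± 50.1 in control cultures (SD, n = 3 each), a log2 difference of 0.18 with a 95% interval of 0.056 to 0.31 and a limma adjusted p of 0.108. It passed in 2 of 16 settings, without dim probe sets (0.0477) and without control A (0.0482).

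Klf13, which encodes an activator of the chemokine gene Ccl5 in T cells, read 998, 1160 and 1055 units on its brightest probe set in MKK4 shRNA cultures, against 1243, 1184 and 1137 in control cultures. MKK4 shRNA culture B overlapped the control range in these units, while after normalization the groups did not overlap. The log2 difference was -0.16 (SE 0.041, limma adjusted p = 0.0703). It passed in 2 of 16 settings, without dim probe sets (0.0359) and with 1 probe set per gene (0.046). Its second probe set averaged 563 ± 53.9 units in MKK4 shRNA cultures and 568 ± 27.1 in control cultures (SD, n = 3 each), and the remaining one was at background in both groups. Klf16, a repressor of the same subgroup, read 672, 695 and 731 units in MKK4 shRNA cultures, against 641, 711 and 697 in control cultures. The groups overlapped, with a log2 difference of 0.01 and a 95% interval of -0.13 to 0.15 (adjusted p = 0.957).

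**Figure D4:**
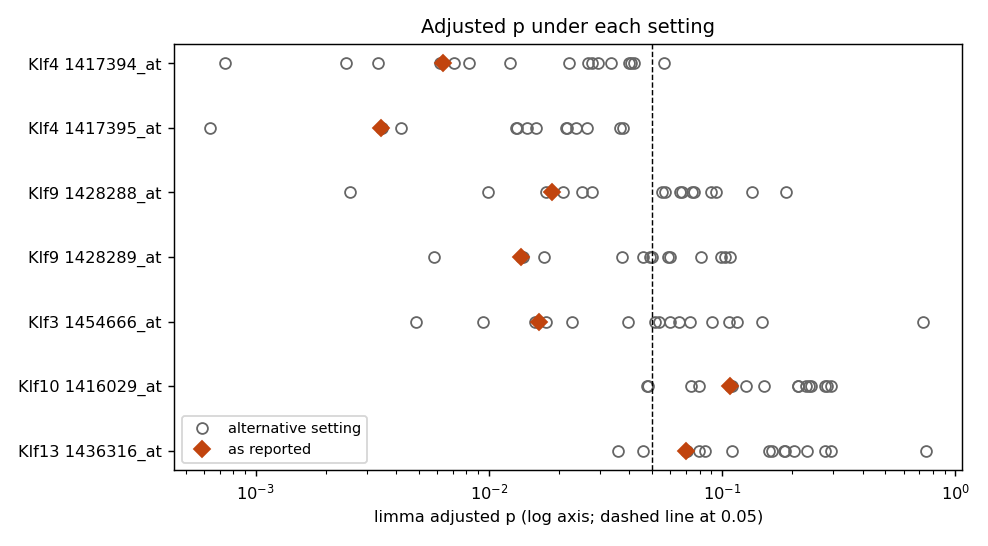
Limma adjusted p (log axis) of 7 KLF probe sets as reported and under up to 16 alternative settings, with the threshold of 0.05 dashed. The Klf4 points lie left of the line except a value of 0.0563, those of Klf9 and Klf3 fall on both sides, and most points of Klf10 and Klf13 lie to its right.

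The related genes that were also measured showed no called change. Of all genes 9.46% were called, so 0 calls among so few genes is not a result about them. Counted by brightest probe sets, 0 of 6 further KLF genes (Klf1, Klf11, Klf12, Klf14, Klf15 and Klf17) were called by limma as fitted or under any of 16 alternatives. On that count 1 (Klf11, another SIN3A-binding repressor) had an unadjusted p under 0.05. A dimmer Klf12 probe set, 1455521_at, at background in both groups, also had an unadjusted limma p under 0.05 (0.0219). Klf11 averaged 390.5 ± 50.9 units in MKK4 shRNA cultures and 453 ± 13.8 in control cultures (SD, n = 3 each), a log2 difference of -0.23 with an adjusted p of 0.213. Klf12, Klf14 and Klf15 were at background in both groups by their brightest probe sets. Of 7 genes of the SP family, zinc finger factors with similar DNA binding, 0 were called and 0 had an unadjusted p under 0.05. Over all 18193 genes, 4386 had an unadjusted limma p under 0.05. Sp5 and Sp8 were at background in both groups by their brightest probe sets. Sp1 averaged 2341 ± 120.3 units in MKK4 shRNA cultures and 2313 ± 92.9 in control cultures, and Sp3 2800.5 ± 187 in MKK4 shRNA and 2937 ± 78.1 in control cultures (SD, n = 3 each).

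Among 12 cofactors of KLF proteins 1 fell and 0 rose, a share near the 9.46% of all genes called in either direction, so the count is not a result about cofactors. Hdac1, a histone deacetylase of the SIN3A complex, averaged 2668 ± 174 units in MKK4 shRNA cultures and 3071 ± 70.5 in control cultures (SD, n = 3 each), a log2 change of -0.22 with a limma adjusted p of 0.0203. It passed in 8 of 16 settings, not without control B (0.0844) or C (0.0736) or MKK4 shRNA A (0.0601) or B (0.0922). Nor did Hdac1 pass with values as deposited (0.0814), with median centring (0.0879), without a trend in the prior variance (0.135) or with a block on the replicate letters (0.0585). The KLF3 partner gene Ctbp2 gave -0.14 (0.135), Ctbp1 0.014 (0.87) and Sin3a 0.046 (0.759), the values being log2 differences with adjusted p. Among 21 genes of upstream control 1 fell and 0 rose, a share under that 9.46%. The gene was Tgfbr1, which encodes a TGF-beta receptor. It averaged 657 ± 62.1 units in MKK4 shRNA cultures and 831 ± 40.1 in control cultures (SD, n = 3 each), a log2 change of -0.35 (adjusted p = 0.00782). With its probe sets averaged it gave -0.17 (0.0934). Mapk7, which encodes ERK5, was at background in both groups, and the glucocorticoid receptor gene Nr3c1 gave -0.0098 (0.96).

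Genes described elsewhere as KLF targets moved in both directions. Of 22 measured, 2 rose and 4 fell, against 5.23% and 4.23% of all genes. Of these 22, 18 lay above the median intensity, where 6.56% of all probe sets were called higher and 5.34% lower. The target list was chosen with earlier results of these data known, so its count is not independent support. Lgals3, the gene of galectin-3, averaged 5368 ± 60.4 units in MKK4 shRNA cultures and 3499.8 ± 114 in control cultures (SD, n = 3 each). Its log2 change was 0.59 with a limma adjusted p of 0.000224. Krt19, a keratin gene, changed by 0.23 on the log2 scale (0.0491). The falls were Thbd (-0.37, adjusted p = 0.00826), the thrombomodulin gene, Egr1 (-0.26, 0.0256), Plau (-0.23, 0.0036), which encodes urokinase, and Cdh1 (-0.14, 0.0304), the E-cadherin gene. Which KLF, if any, acts on which of these genes in these cells was not tested. Cdkn1a gave -0.047 (0.647) and Ccnd1 0.045 (0.443), and neither passed. Lgals3 passed in all 16 settings and Plau and Thbd in 15, while Egr1 passed in 8 and Krt19 and Cdh1 in 6. Krt19 and Cdh1 were lost without any 1 of the 6 arrays (adjusted p 0.0515 to 0.174), and Egr1 without control A (0.0632), B (0.101) or C (0.102) or MKK4 shRNA B (0.0887) or C (0.0519). Egr1 was also lost with values as deposited (0.101), with median centring (0.0812) and without a trend in the prior variance (0.121).

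Since Klf9 is a glucocorticoid-induced gene, 8 other genes of that response were read beside it, and 3 rose and 2 fell, against 5.23% and 4.23% of all genes. All 8 lay above the median intensity, where 6.56% of all probe sets were called higher and 5.34% lower. This list was chosen with earlier results of these data known, so its count is not independent support. Tsc22d3, which encodes the glucocorticoid-induced leucine zipper protein, averaged 668 ± 49.8 units in MKK4 shRNA cultures and 421 ± 12.1 in control cultures (SD, n = 3 each), a log2 change of 0.63 with a limma adjusted p of 0.00122. Ddit4, an inhibitor of mTOR signalling, changed by 0.35 (0.0034) and Fkbp5, a co-chaperone of the receptor, by 0.27 (0.00995) on the log2 scale. Dusp1, a MAP kinase phosphatase gene, changed by -0.57 (0.000269) and the kinase gene Sgk1 by -0.21 (0.046). Per1 (0.086, 0.752), Zbtb16 (0.26, 0.133) and Errfi1 (-0.084, 0.258) did not pass. Ddit4 and Dusp1 passed in all 16 settings and Tsc22d3 in all 15 that include it, while Fkbp5 passed in 11 of 16 and Sgk1 in 6. Fkbp5 gave 0.069 (0.709) with its probe sets averaged and was lost without MKK4 shRNA B (0.0519) or C (0.0562). Sgk1 was lost without any array but control B (0.112 to 0.16), with values as deposited (0.116) and with median centring (0.11).

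**Figure D5:**
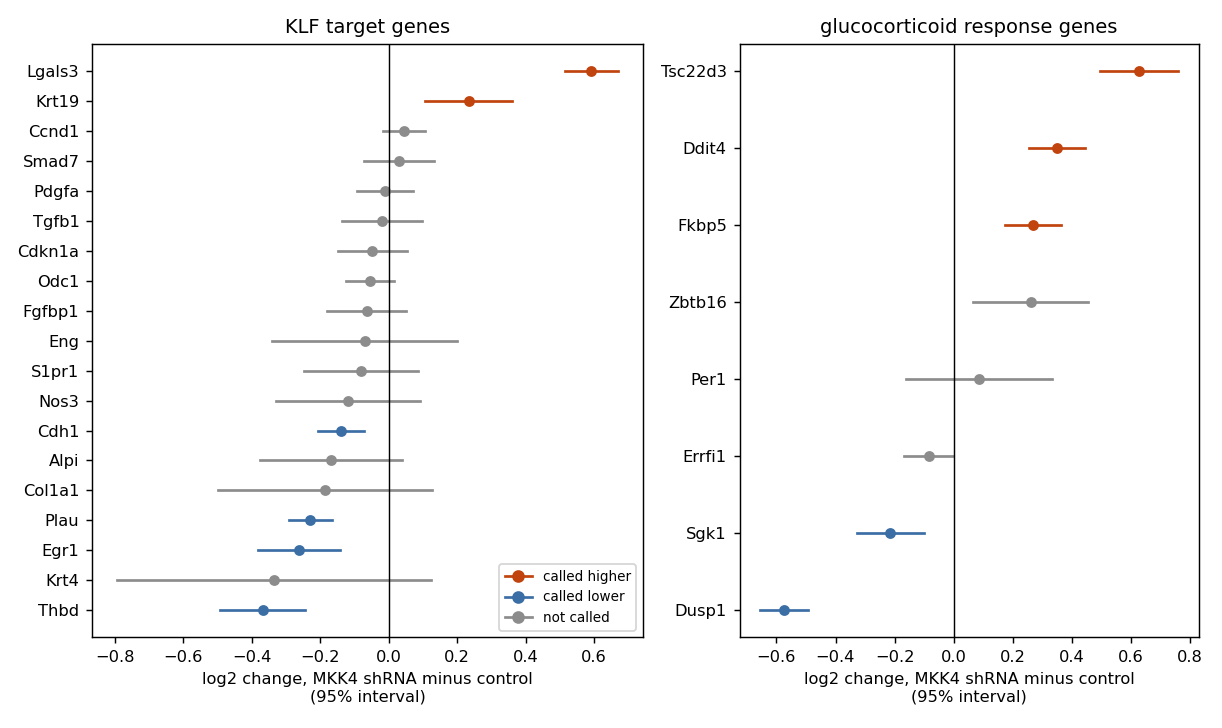
Log2 change (MKK4 shRNA minus control) with 95% intervals for the brightest probe set of each measured KLF target gene and glucocorticoid response gene, leaving out genes at background in both groups. Lgals3 at 0.59 and Tsc22d3 at 0.63 lie farthest to the right, and Thbd at -0.37 and Dusp1 at -0.57 farthest to the left.

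The genes whose pattern over the 6 arrays was most like that of Klf4 (probe set 1417395_at) were Mndal, an interferon-inducible gene, with Pearson r = 0.999, Mei4, a gene of meiotic recombination, with 0.998, and Cpe, the carboxypeptidase E gene, with 0.998, out of 19393 probe sets that name 1 gene other than a member and have a mean above the median. The points of these correlations share the same arrays and fall into the 2 groups, so r mostly reflects the group difference. They averaged 215, 438 and 136 units in MKK4 shRNA cultures and 88.5, 44.1 and 68.9 in control cultures. Each control mean lay below every array median, so these genes came above the filter through the MKK4 shRNA cultures. Their log2 changes were larger than that of Klf4, at 1.13, 2.91 and 0.84.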

How the data were processed

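Per the labels' protocols, biotin-labelled cRNA of the 6 cultures was read on Affymetrix arrays with 1 colour. The authors deposited linear intensities for 45101 probe sets per array. Their probe summary, background correction and normalization are each not given in the sources used here, and array medians are nearly equal. For this report 16 was added, log2 taken and values quantile-normalized; 64 control probe sets were left out. Fold changes are on the log2(intensity + 16) scale and so understate the change of dim probe sets. Means and SDs are in deposited units. The 45037 probe sets were fitted with limma 3.58.1 in R 4.3.3 (lmFit, eBayes with a trend), group as the single term, with Benjamini-Hochberg adjustment over all of them at 0.05. The platform annotation names 1 gene for 34945 probe sets, several for 932 and none for the rest. Lists were counted over the brightest probe set of each of 18193 genes, of which 18031 were found in the RefSeq table (GRCm38.p6) by Entrez number.

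The number of arrays limits the precision. Named were all members, Map2k4, up to 6 called genes of each list by size, and for the member probe set with the smallest adjusted p the 3 genes of highest Pearson r; uncalled genes of the lists were named as examples after their values were seen. The members and lists were chosen with earlier results of these data known. List genes without a match were not analysed here. Proteins were not analysed here. In simulated data with 45037 probe sets, 200 drawn at random over all intensities were changed. The fit recovered 34% of those changed by 0.5 and 78% of those changed by 1 on the log2 scale. The real data had 2868 calls and most KLF probe sets were bright, so these shares do not give the power for KLF probe sets. The letters A, B and C showed no sign of pairing the arrays. Same-letter deviations correlated at -0.085, -0.007 and -0.27, and different-letter ones at -0.185 to 0.293. These few values cannot settle whether the letters were paired by design.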

Additional observations from a re-analysis of the deposited data

How the results depend on the processing

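Map2k4 stayed between -1.26 and -1.09 on the log2 scale under all 16 alternatives and passed in each. Over the member probe sets, 449 of their values under alternatives kept their side of the threshold, 28 lost a call, 4 gained one and none reversed a called direction. Counts of calls as reported are 2868 probe sets in all (1610 higher, 1258 lower), 5 KLF probe sets, 3 KLF genes, 1 cofactor, 1 upstream gene, 6 targets and 5 glucocorticoid genes. With values as deposited they were 1842 in all (1229 higher, 613 lower), 2 KLF probe sets (2 higher, 0 lower), 1 KLF gene, 0 cofactors and 3 targets, and with median centring 2 KLF probe sets (2 higher, 0 lower), 1 KLF gene and 0 cofactors. Without dim probe sets, with fewer tests, they were 4309 in all, 5 KLF genes, 2 cofactors and 2 upstream genes. Without a trend in the prior variance they were 941 in all, 1 KLF probe set (Klf4), 0 KLF genes, 0 cofactors, 0 upstream genes, 1 target and 3 glucocorticoid genes. The replicate block, on letters that showed no sign of pairing the arrays, gave 1139 in all, 2 KLF probe sets (both Klf4), 1 KLF gene, 0 cofactors and 3 glucocorticoid genes. With 1 row per gene, the brightest probe set gave 2 upstream genes, and the mean of probe sets 1539 genes in all, 1 KLF gene and 2 cofactors. Leaving out probe sets that may match more than 1 transcript gave 1701 in all, 2 cofactors, 2 upstream genes and 3 glucocorticoid genes. Leaving out 1 array gave 1183 to 1867 in all, 2 to 4 KLF probe sets, 1 to 2 KLF genes, 0 to 1 cofactors, 1 to 2 upstream genes, 3 to 4 targets and 3 to 5 glucocorticoid genes. Where no value shows it, the cause was not tested.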
